A study of Mus musculus with 16 samples.

Results

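The chemokine and chemokine receptor genes were taken from the expression table by their symbols, which were those of the Ccl, Cxcl, Ccr and Cxcr series together with *Cx3cl1*, *Cx3cr1*, *Xcl1*, *Xcr1* and the atypical receptors *Ackr1* to *Ackr4*. Of the 19373 genes in the table, 43 chosen in this way are described. They were 26 ligands, with 16 of the CC class, 9 of the CXC class and *Cx3cl1*, and 17 receptors, with 7 of the CC class, 4 of the CXC class, *Cx3cr1*, *Xcr1* and 4 atypical receptors. A further 19 annotated genes of the family, among them *Ccl4*, *Ccl5*, *Ccl19*, *Ccr6*, *Cxcr1* and *Cxcr3*, were not among the genes of the table.

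Chemokines are small secreted proteins that bind to the extracellular matrix and guide leukocytes along their gradients. Their receptors signal through inhibitory G proteins, which act on phosphoinositide metabolism, activate Rac and turn on integrins. The atypical receptors take up and clear ligand without that signal. In the fat of obese animals, monocytes that carry the receptor CCR2 are known to enter the tissue and become macrophages, which make and respond to further chemokines.

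RNA was taken from gonadal white adipose tissue (gWAT) of 16 male mice on the C57Bl6/J background, 1 library per mouse. Control mice (genotype Flox, *Mboat7* flox/flox) and adipocyte-specific knockout mice (ASKO, the same floxed alleles with Cre recombinase under the adiponectin promoter) were kept on chow from Teklad or on a high fat diet (HFD) from Research Diets for 20 weeks, with 4 mice in each of the 4 groups. Both genotypes thus carry the floxed *Mboat7* alleles, and in ASKO mice the immune, vascular and stromal cells of the tissue keep the gene. Replicate numbers run from 0 to 3 within a group, and the values of a group are given below in that order. All levels are in FPKM, a fragment count scaled to exon length and to the fragments mapped in that library.

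Depth was estimated from the steps of the low FPKM values, as described below. The fixed range of steps held only shallow depths, so the estimate could not have shown deep data. The tissue held adipocyte RNA, since none of 12 adipocyte markers was at 0 throughout a group. The steps that best fitted the low FPKM values correspond to between 230000 and 405000 fragments per mouse. By these steps, 1 fragment on the *Ccl8* transcript of 511 bases was worth between 4.83 and 8.51 FPKM, depending on the mouse. Over the 12 members with 1 annotated transcript, 56 of the 83 values above 0 stood for fewer than 5 fragments, whereas *Ccl11* rested on 7.8 to 43.8 fragments. In each mouse, 32.6% to 55.2% of the summed FPKM came from its 10 most abundant genes. *Mboat7* itself was listed on chow at 2.42, 4.33, 0.902 and 4.99 FPKM in control mice and at 0, 1.39, 0 and 2.89 FPKM in ASKO mice. On HFD it was listed at 0, 0, 2.15 and 1.61 FPKM in control mice and at 1.14, 0, 2.60 and 0 FPKM in ASKO mice. The genotypes overlapped on both diets, with two-sided exact permutation p = 0.143 on chow and 1.0 on HFD (4 mice against 4, where the smallest possible p is 0.0286), so the whole-tissue values did not separate the genotypes that the labels give.

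Few members were present in every mouse. Among the 688 member values, 351 (51.0%) were 0, against 42.0% over all genes in the table. Members with at least 1 FPKM in all 4 mice of a group numbered 11 in control mice on chow (25.6% of members, against 33.2% of all genes), 8 in ASKO chow mice (18.6% against 30.9%), 11 in control HFD mice (25.6% against 32.6%) and 10 in ASKO HFD mice (23.3% against 35.4%). *Ackr4*, *Ccl6*, *Ccl11*, *Cxcl9*, *Cxcl12* and *Cxcl16* were detected in this way in all 4 groups, and they were also the 6 members above 0 in all 16 mice. *Cxcl11* was detected in every group except ASKO mice on HFD, where 1 of 4 mice was at 0. Detection of the receptor *Ccr2* and of the ligand *Cxcl14* in 4 of 4 mice occurred in both HFD groups and in neither chow group. For *Ccr2* in control mice on chow this turned on 1 mouse at 0.952 FPKM, with all 4 above 0. Its mean in control mice was 4.71 FPKM on chow and 4.63 FPKM on HFD.

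Members with at least 1 FPKM in at least 4 of the 16 mice were tested. This left 27 members, 15 ligands and 12 receptors, among 13148 genes. The 16 members not tested were the ligands *Ccl1*, *Ccl7*, *Ccl12*, *Ccl17*, *Ccl22*, *Ccl24*, *Ccl25*, *Ccl27a*, *Ccl28*, *Cxcl2* and *Cx3cl1* and the receptors *Ccr1*, *Ccr3*, *Ccr4*, *Cxcr2* and *Ackr2*, and no value of theirs exceeded 15.8 FPKM. Just inside the limit stood *Ackr1*, at 2.69 to 9.72 FPKM in 4 mice, and *Cxcl1*, at 3.16 to 7.67 FPKM in 4 mice. Just outside stood *Ccl27a*, *Ccl22*, *Ackr2* and *Ccr1*, each at 1 FPKM or more in 3 mice. *Ccl1*, *Ccl12*, *Ccl17*, *Ccl24* and *Ccr4* were above 0 in 1 mouse each.

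**Figure D1:**
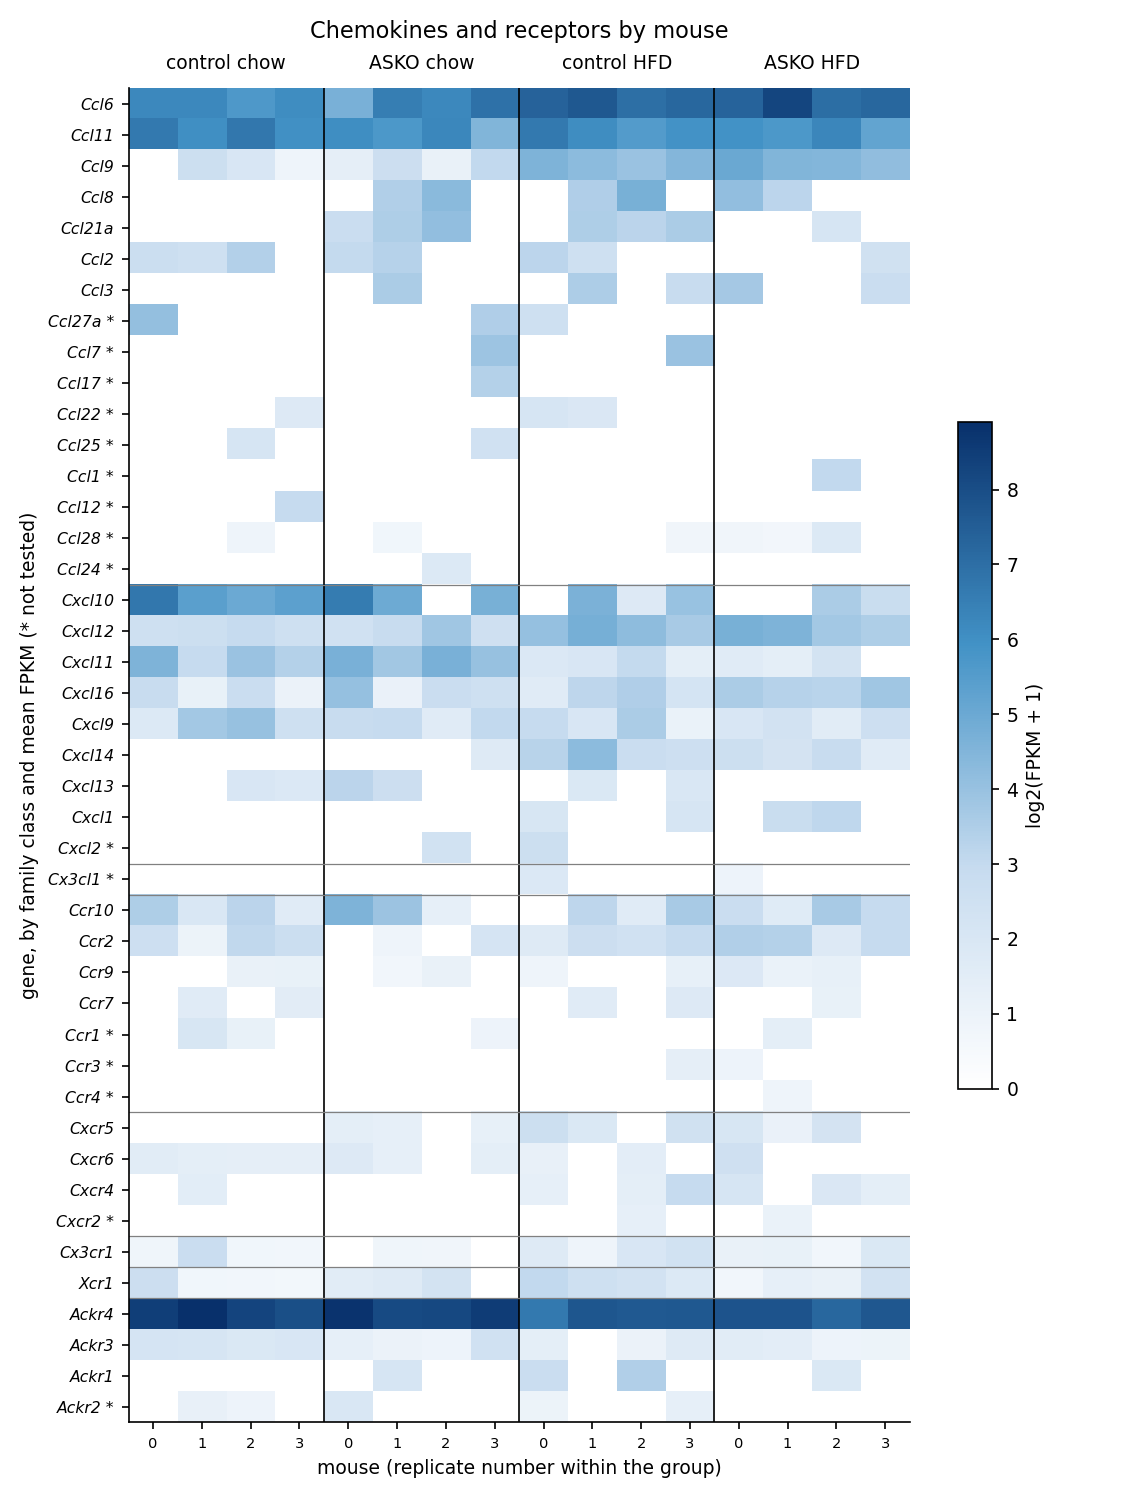
Heat map of log2(FPKM + 1) for the 43 members (rows, by class and then by mean FPKM) in the 16 mice (columns, by group and replicate number). White is 0, and an asterisk marks the 16 members not tested. *Ackr4*, *Ccl6* and *Ccl11* are dark in every mouse, and most other rows hold zeros.

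*Ackr4*, the atypical receptor that clears CCL19, CCL21 and CCL25, had the highest level per length of the members, with a mean of 265 FPKM over the 16 mice. It took between 48.8% and 67.0% of the members' summed FPKM in chow mice and at most 43.6% in HFD mice. *Ccl6*, a CC ligand made by macrophages that binds CCR1, followed at a mean of 121 FPKM. Next came *Ccl11* (eotaxin, the ligand of CCR3 that attracts eosinophils) at 64.6 FPKM, *Cxcl10* (a ligand of CXCR3 that interferons induce) at 26.5 FPKM and *Ccl9* (a CC ligand of CCR1) at 11.98 FPKM. *Ccl6* and *Ccl11* together made up between 34.6% and 81.8% of the summed ligand FPKM of a mouse. Of the receptors of these ligands, *Ccr1* was above 0 in 4 mice, with a highest value of 3.24 FPKM. *Ccr3* was above 0 in 2 mice, with a highest value of 1.51 FPKM. The values above 0 stood for an estimated 0.9 to 2.8 fragments in *Ccr1* and 1.0 to 1.5 in *Ccr3*, so low and absent cannot be told apart. *Cxcr3*, the receptor of CXCL10, was not among the genes of the table.

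The question of diet was asked in each genotype and, in a contrast added after the data had been seen, as the average over both genotypes in the same limma fit (8 mice per diet). To pass, a member needed an adjusted p-value under 0.05 and a difference in mean log2(FPKM + 1) above 0.5 in size. Over both genotypes 6 of the 27 members passed (22.2%), 4 higher and 2 lower on HFD, against 990 of all 13148 genes (7.53%, with 4.49% higher and 3.04% lower). The ligands *Ccl6*, *Ccl9*, *Cxcl12* and *Cxcl14* rose, whereas the ligand *Cxcl11* and the atypical receptor *Ackr4* fell. The median difference was 0.62 over the 27 members and 0.01 over all genes on the log2(FPKM + 1) scale. It was 0.44 without *Cxcl1*, which was at 0 in all chow mice. Other members reached the limit for testing mostly through 1 diet. *Cxcl14* was above 0 in 1 chow and 8 HFD mice and *Cxcr4* in 1 and 6, whereas *Cxcr6* was above 0 in 7 chow and 3 HFD mice. The medians therefore depend in part on that limit, and no rise of the family as a whole is read from them. In 3 members the 8 HFD mice did not overlap the 8 chow mice (*Ccl6* and *Ccl9* higher, *Ackr4* lower), which held for 2.22% of all genes tested. In whole tissue, more or fewer cells of a type and more or less RNA per cell cannot be told apart.

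The CC ligands *Ccl6* and *Ccl9* lie side by side on chromosome 11 (*Ccl9* at chr11:83572919-83578636 and *Ccl6* at chr11:83587882-83593087, mm10, both on the minus strand), and both rose. *Ccl6* had 73.1, 73.0, 49.7 and 66.0 FPKM in control mice on chow and 24.9, 91.8, 72.7 and 119.8 FPKM in ASKO mice on chow. On HFD it had 162, 203, 124 and 146 FPKM in control mice and 158, 299, 126 and 149 FPKM in ASKO mice. The lowest HFD mouse was above the highest chow mouse, and the means were 71.4 ± 27.8 FPKM on chow and 171 ± 57.2 FPKM on HFD (SD, n = 8 each). The difference over both genotypes was 1.31 (SE 0.28, limma adjusted p = 0.00731). Within each genotype the limma test did not pass, at 1.26 in control mice (adjusted p = 0.117) and 1.35 in ASKO mice (adjusted p = 0.0776).

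*Ccl9* stood at 0, 5.18, 3.15 and 0.855 FPKM in control mice on chow and at 1.54, 5.39, 1.196 and 7.31 FPKM in ASKO mice on chow. The HFD levels were 22.8, 18.2, 14.3 and 20.8 FPKM in control mice and 31.5, 21.7, 20.99 and 16.7 FPKM in ASKO mice. The diets did not overlap in either genotype. The difference over both genotypes was 2.70 (SE 0.39, limma adjusted p = 0.000254), with 2.91 in control mice (limma adjusted p = 0.00681) and 2.48 in ASKO mice (limma adjusted p = 0.0181). The ASKO call was lost without ASKO chow replicate 0 (limma adjusted p = 0.0537), without ASKO chow replicate 2 (0.0563), without ASKO HFD replicate 0 (0.0681) and with a pseudocount of 0.1 (0.138).

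Because these neighbours moved together, the 250 bases before their annotated starts are shown, from RefSeq on GRCm38.p6, read 5′ to 3′ on the gene's strand (*Ccl6* chr11:83593088-83593337, minus strand, *Ccl9* chr11:83578637-83578886, minus strand).
Ccl6: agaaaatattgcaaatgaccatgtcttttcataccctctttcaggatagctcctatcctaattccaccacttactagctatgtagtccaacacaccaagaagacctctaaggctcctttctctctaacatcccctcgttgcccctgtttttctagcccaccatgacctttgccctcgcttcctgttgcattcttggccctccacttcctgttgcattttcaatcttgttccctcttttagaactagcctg
Ccl9: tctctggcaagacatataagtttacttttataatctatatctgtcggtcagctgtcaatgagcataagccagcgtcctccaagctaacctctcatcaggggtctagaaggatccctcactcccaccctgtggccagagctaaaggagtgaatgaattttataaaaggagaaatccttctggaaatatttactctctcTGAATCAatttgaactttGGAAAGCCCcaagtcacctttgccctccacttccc
Capitals mark matches to 3 letter patterns, chosen after the sequences had been looked at and searched on both strands. The patterns were a short form of the kB site bound by NF-kB (GGGNNTTCC), the interferon-stimulated response element (GAAANNGAA) and the AP-1 site (TGANTCA). Longer forms of the kB site do not match this pattern, so an unmarked stretch can still hold one. *Ccl9* holds the kB pattern on its complementary strand at bases -35 to -27 from the start and the AP-1 pattern at bases -53 to -47, and *Ccl6* holds none of the 3. Among all 32851 promoters of this length, 4.98% hold the kB pattern and 6.75% the AP-1 pattern. Of the 34 members with a promoter entry, the kB pattern was found in *Ackr1*, *Ackr4*, *Ccl9*, *Cxcl9* and *Cxcl10*. A match of letters is a description of the sequence and was not tested as a binding site.

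*Cxcl12*, the stromal ligand of CXCR4 and of the atypical receptor ACKR3, rose as well. Control mice had 4.84, 5.14, 6.74 and 4.72 FPKM on chow and 15.5, 26.1, 17.7 and 11.52 FPKM on HFD. ASKO mice had 4.33, 6.30, 13.1 and 4.55 FPKM on chow and 25.2, 22.7, 12.2 and 10.3 FPKM on HFD. The diets did not overlap in control mice, and in ASKO mice 1 chow mouse lay above 2 HFD mice. The mean went from 6.22 ± 2.92 to 17.6 ± 6.31 FPKM (SD, n = 8 each), and the difference over both genotypes was 1.37 (SE 0.29, limma adjusted p = 0.0062). *Cxcr4*, its signalling receptor, was at 0 in 7 of 8 chow mice and reached 6.88 FPKM on HFD, with limma adjusted p = 0.1. *Ackr3* was between 0.894 and 4.34 FPKM on chow and between 0 and 2.27 FPKM on HFD, and did not pass either.

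*Cxcl14*, a CXC ligand known from epithelia and brown fat, was listed at 0 in all 4 control mice on chow and at 0, 0, 0 and 2.24 FPKM in ASKO mice on chow. On HFD it was above 0 in all 8 mice, at 8.69, 18.2, 5.72 and 4.98 FPKM in control mice and at 5.18, 3.69, 6.24 and 2.07 FPKM in ASKO mice. The single ASKO mouse above 0 on chow was higher than the lowest ASKO mouse on HFD, and no other pair crossed. Over both genotypes the limma adjusted p was 0.000179, with a difference of 2.56 (SE 0.36) whose size depends on the pseudocount. In control mice the limma adjusted p was 0.00159, with no fold change since the chow mice were at 0. In ASKO mice the difference was 1.91 with a limma adjusted p of 0.0484, just inside the limit. That ASKO call held in 8 of the 26 settings tried, and it was lost in 13 of the 16 that left out 1 mouse and with the replicate number as a block (adjusted p = 0.0936). The 3 mice whose absence kept it were ASKO chow replicate 3, ASKO HFD replicate 3 and control HFD replicate 1.

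Markers of other cells moved with these members. Over both genotypes 4.49% of all tested genes rose and 3.04% fell. Of 16 macrophage markers 11 rose over both genotypes, and their summed level was between 268 and 371 FPKM on chow, between 997 and 1410 FPKM in control mice on HFD and between 1250 and 1780 FPKM in ASKO mice on HFD. *Fcgr1* was at 0 in all 4 control mice on chow, and no other macrophage marker was at 0 throughout a group. Among 10 genes of lipid-associated macrophages 9 rose. Of 10 fibroblast and progenitor markers 2 rose (*Lum* and *Col3a1*), with sums of 196 to 349 FPKM on chow and 338 to 571 FPKM on HFD. Mast cell and eosinophil genes gave 3 rises among 5 tested, all in mast cell protease genes (*Mcpt4*, *Cma1* and *Tpsb2*). Within control mice 2 of the 5 passed and within ASKO mice none. *Siglecf*, a marker of eosinophils, was at 0 in every mouse outside the control HFD group. The sums of this list were 5.98 to 18.6 FPKM on chow and 24.7 to 67.4 FPKM on HFD. None of the 3 tested T and NK cell markers, the 4 tested B cell markers or the 9 tested endothelial markers passed. The part of these cells in the rise of *Ccl6*, *Ccl9*, *Cxcl12* and *Cxcl14* was not tested.

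*Cxcl11*, a ligand of CXCR3, fell on HFD. It stood at 23.0, 6.68, 14.4 and 9.31 FPKM in control mice on chow and at 2.60, 2.997, 7.10 and 1.57 FPKM in control mice on HFD. ASKO mice had 24.4, 12.5, 24.9 and 15.1 FPKM on chow and 2.06, 1.58, 3.85 and 0 FPKM on HFD. The diets did not overlap in ASKO mice, and in control mice the highest HFD value lay just above the lowest chow value. The difference over both genotypes was -2.31 (SE 0.38, limma adjusted p = 0.00076), with -1.65 in control mice (limma adjusted p = 0.124) and -2.97 in ASKO mice (limma adjusted p = 0.0038). GENCODE types this gene as a polymorphic pseudogene in the reference strain, which is also the background of these mice. Whether its RNA makes a working ligand here was not tested. Of its exon bases, 41.7% overlap the opposite-strand pseudogene *Gm2673*. The kit was directional, but whether strand entered the counting is not stated, and without strand the reads of such partners cannot be told apart. *Gm2673* was listed at 0 in 11 of 16 mice and reached 8.06 FPKM in 1 chow mouse and 19.9 FPKM in 1 HFD mouse.

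Its neighbours on chromosome 5, *Cxcl9* and *Cxcl10*, are ligands of the same receptor and targets of interferon. *Cxcl10* had 106, 40.2, 30.9 and 39.7 FPKM in control mice on chow and 94.9, 29.7, 0 and 24.9 FPKM in ASKO mice on chow. The HFD levels were 0, 24.2, 2.34 and 14.9 FPKM in control mice and 0, 0, 10.9 and 5.91 FPKM in ASKO mice. All control mice on HFD were below all control mice on chow, whereas the ASKO groups overlapped through the chow mouse at 0. The difference over both genotypes was -2.74 (SE 0.89) and missed the limit, with limma adjusted p = 0.0741. *Cxcl9* had a mean of 7.16 ± 4.49 FPKM on chow and 4.51 ± 3.15 FPKM on HFD (SD, n = 8 each), with a difference of -0.56 that did not pass. In *Cxcl10*, 5.9% of the exon bases overlap *Art3* on the other strand, a gene that itself fell on HFD (-1.12, limma adjusted p = 0.0263). Its part was not tested.

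The same stretch is shown for these 2 neighbours of *Cxcl11*, which share its receptor (RefSeq, GRCm38.p6, *Cxcl9* chr5:92328080-92328329, minus strand, *Cxcl10* chr5:92348890-92349139, minus strand).
Cxcl9: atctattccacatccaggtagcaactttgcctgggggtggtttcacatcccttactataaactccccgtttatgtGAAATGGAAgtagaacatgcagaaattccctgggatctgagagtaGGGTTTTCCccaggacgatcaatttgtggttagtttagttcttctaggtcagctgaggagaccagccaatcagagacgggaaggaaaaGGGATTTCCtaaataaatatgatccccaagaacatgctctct
Cxcl10: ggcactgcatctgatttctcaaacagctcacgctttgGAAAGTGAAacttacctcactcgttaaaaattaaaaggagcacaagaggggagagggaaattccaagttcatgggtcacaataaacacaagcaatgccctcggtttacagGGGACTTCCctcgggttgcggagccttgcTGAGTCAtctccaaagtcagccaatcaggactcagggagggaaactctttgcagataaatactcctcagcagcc
Capitals mark the same 3 patterns. *Cxcl9* holds the kB pattern at bases -130 to -122 and -42 to -34, and *Cxcl10* at bases -103 to -95. Both hold the response element pattern, at bases -175 to -167 in *Cxcl9* and -213 to -205 in *Cxcl10*, as do 7.13% of all promoters of this length and *Ccl1*, *Ccl3*, *Ccr2* and *Cxcl14* among the other members. *Cxcl10* also holds the AP-1 pattern at bases -74 to -68. The promoter of *Cxcl11* was not among the sequences used here.

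*Ackr4* fell on HFD. Chow values were 347, 478, 307 and 245 FPKM in control mice and 439, 271, 282 and 359.5 FPKM in ASKO mice. HFD values were 100.2, 212, 197 and 203 FPKM in control mice and 223, 226, 148 and 209.8 FPKM in ASKO mice. Every HFD mouse was below every chow mouse, and the mean fell from 341 ± 82.3 to 190 ± 43.5 FPKM (SD, n = 8 each). The difference over both genotypes was -0.85 (SE 0.20, limma adjusted p = 0.0145), while the limma test within control mice (-0.97, adjusted p = 0.0904) and within ASKO mice (-0.73, adjusted p = 0.215) did not pass. *Acad11*, an acyl-CoA dehydrogenase gene on the opposite strand, overlaps 8.9% of the exon bases of *Ackr4* and fell too (-1.02, limma adjusted p = 0.0474), at levels between 2.75 and 15.999 FPKM. Of 12 adipocyte markers 8 fell and *Lep* rose, against 3.04% of all genes lower and 4.49% higher. The marker sums were 9150 to 26000 FPKM on chow and 4690 to 10700 FPKM on HFD. The part of these genes in the fall of *Ackr4* and *Cxcl11* was not tested.

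**Figure D2:**
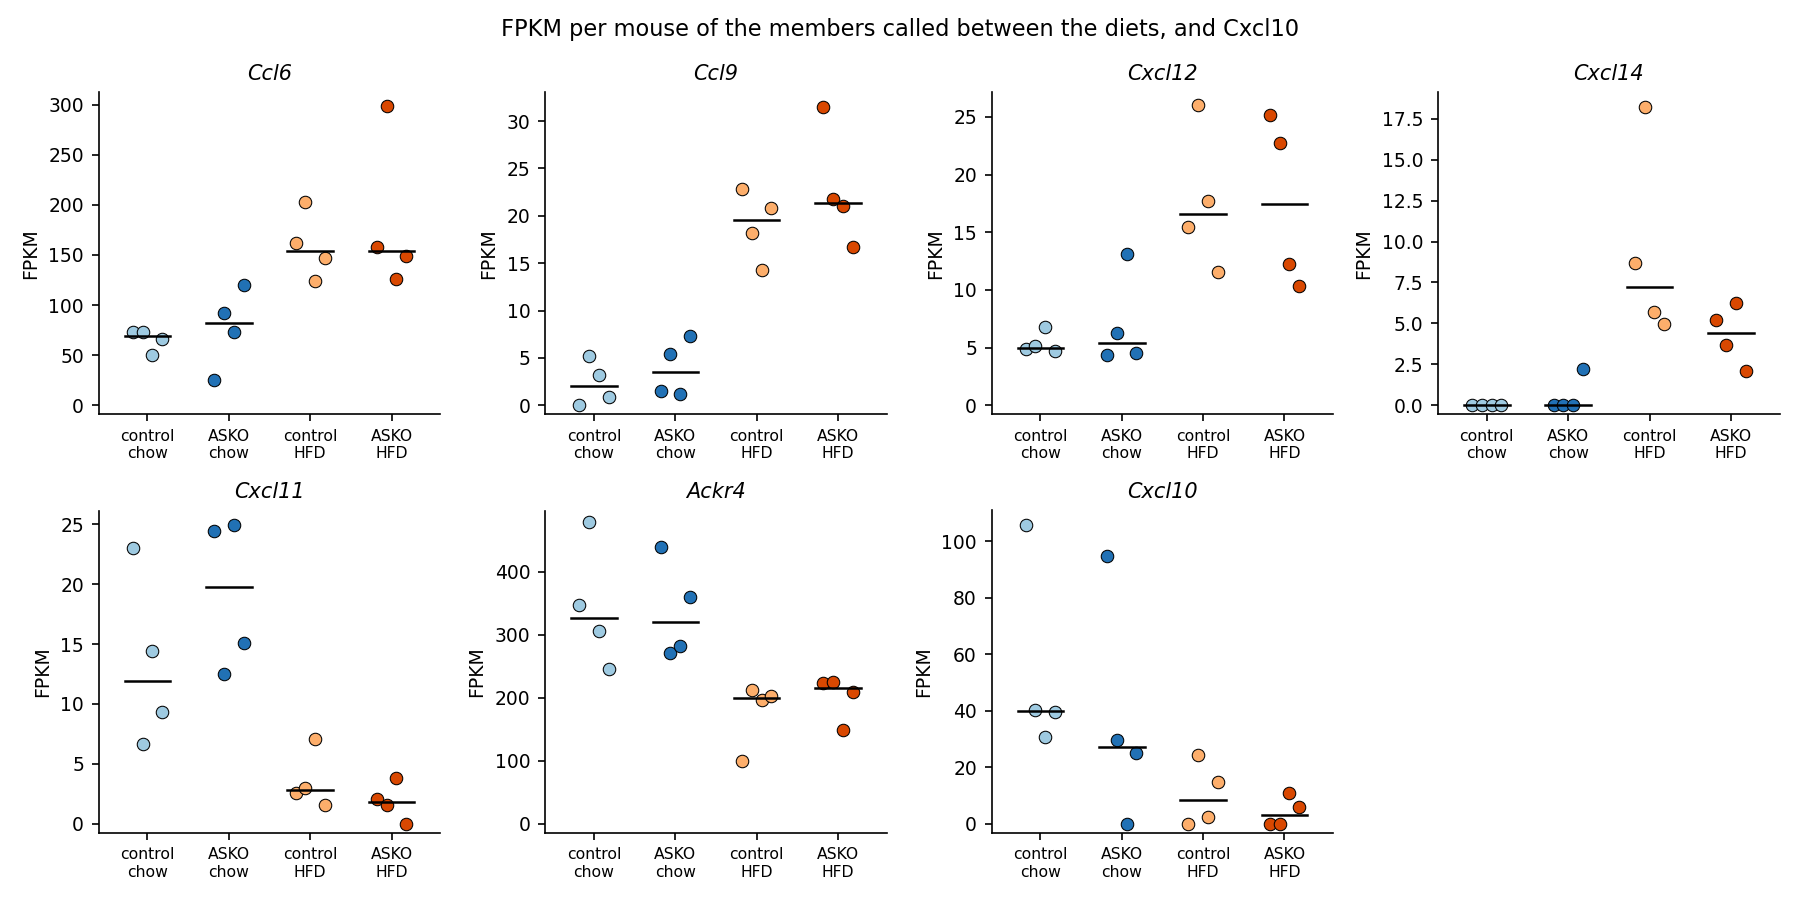
FPKM in each mouse (points) by group, with the median of 4 mice as a line, for the 6 members that passed between the diets and for *Cxcl10*, which did not (adjusted p = 0.0741). *Ccl6* and *Ccl9* are higher and *Ackr4* is lower in all 8 HFD mice than in any of the 8 chow mice.

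The other tested ligands did not pass the diet test. *Ccl11* had 67.6 ± 27.1 FPKM on chow and 61.6 ± 19.9 FPKM on HFD (SD, n = 8 each), with a difference of -0.07 on the log2(FPKM + 1) scale. *Cxcl16*, the membrane-bound ligand of CXCR6, had 5.15 ± 4.72 FPKM on chow and 8.17 ± 3.70 FPKM on HFD, and 18.3% of its exon bases overlap *Zmynd15* on the opposite strand, which rose (1.87, limma adjusted p = 0.000245). *Ccl2*, the main ligand of CCR2 and a gene often raised in obese fat, was listed at 5.45, 4.95, 9.55 and 0 FPKM in control mice on chow and at 8.04, 4.79, 0 and 0 FPKM in control mice on HFD. In ASKO mice *Ccl2* was listed at 6.97, 9.07, 0 and 0 FPKM on chow and at 0, 0, 0 and 4.54 FPKM on HFD. Its difference over both genotypes was -0.85, with groups that overlapped in both genotypes. *Ccl3*, a macrophage chemokine that binds CCR1, was above 0 in 1 chow mouse and 4 HFD mice, and *Cxcl1*, a neutrophil attractant, in no chow mouse and 4 HFD mice (limma adjusted p = 0.144). *Ccl8* and *Cxcl13* were at 0 in 10 of 16 mice each.

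Most receptors were low on both diets and did not pass the diet test. *Ccr10*, the receptor of CCL27 and CCL28 on skin-homing T cells and plasma cells, was above 0 in 14 of 16 mice and reached 22.8 FPKM in 1 ASKO mouse on chow, while neither of its ligands was tested. *Xcr1* was above 0 in 15 mice and *Cx3cr1*, the receptor of patrolling monocytes and some macrophages, in 14 mice, with highest values of 7.16 and 5.67 FPKM. *Cxcr6* (the receptor of CXCL16 on T and NK cells) was above 0 in 10 mice and did not exceed 4.59 FPKM. *Cxcr5* (the B cell receptor of CXCL13) was at 0 in all 4 control mice on chow and above 0 in 9 of the other 12 mice, and *Ccr9*, the gut-homing receptor, was above 0 in 9 mice. *Ccr7*, the receptor of CCL19 and CCL21 on T cells and dendritic cells, was above 0 in 5 mice and reached 2.40 FPKM.

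Within control mice 2 of the 27 members passed between the diets (*Cxcl14* and *Ccl9*, both higher), against 2.91% of all genes (1.81% higher and 1.1% lower). In ASKO mice 3 passed (*Ccl9* and *Cxcl14* higher, *Cxcl11* lower), against 3.43% of all genes (2.13% higher and 1.3% lower). Groups without overlap occurred in 7 members in control mice (*Cxcl14*, *Ccl9*, *Cxcl12* and *Ccl6* higher, *Ackr4*, *Cxcl10* and *Ackr3* lower on HFD, against 8.34% of all genes) and in 4 members in ASKO mice (*Ccl9* and *Ccl6* higher, *Cxcl11* and *Ackr4* lower, against 9.6% of all genes). The median difference of the members was 0.48 in control mice and 0.29 in ASKO mice, against 0.00 and 0.03 over all genes. Those medians depend on members listed at 0 in every mouse of a group. Without the 7 such members in control mice the median was -0.02, and without the 4 such members in ASKO mice it was 0.16.

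Genotype was compared within each diet, with the same mice that enter the diet comparisons. On HFD limma called none of the 27 members, with 1 at an unadjusted p under 0.05 (against 677 of all 13148 genes, 5.15%), and it called 1 of all genes (0.00761%). On chow limma again called none, with 2 members at an unadjusted p under 0.05 (against 631 genes, 4.8%), and it called 1 gene (0.00761%). The interaction of genotype and diet gave no call among the members, with 2 at an unadjusted p under 0.05 (against 828 genes, 6.3%), and none among all genes. No member had genotypes without overlap, against 3.38% of all genes on HFD and 2.19% on chow. The median difference between genotypes (ASKO minus control) was -0.22 over the members on HFD and 0.00 on chow, against 0.02 and 0.00 over all genes. Without the members listed at 0 in every mouse of a group, 1 on HFD and 9 on chow, it was -0.15 on HFD and -0.12 on chow. The standard errors of these differences ran from 0.29 to 1.25, with a median of 0.60 on either diet, so differences of that size in single members were not detectable with 4 mice a group.

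*Ccl21a*, the ligand of CCR7 made by lymphatic vessels and lymph node stroma, had the lowest unadjusted p in every genotype comparison. It was listed at 0 in all 4 control mice on chow and at 5.56, 10.3, 16.3 and 0 FPKM in ASKO mice on chow. On HFD the order was the other way, with 0, 10.2, 8.34 and 10.9 FPKM in control mice and 0, 0, 3.30 and 0 FPKM in ASKO mice. Each pair of groups overlapped at 0. Unadjusted p was 0.00949 on chow, 0.0333 on HFD and 0.00178 for the interaction in the limma fit, and the adjusted p-values were 0.875, 0.919 and 0.655. The values above 0 stood for an estimated 1.0 to 4.6 fragments each, and *Ccl21a* has near-identical copies in the mouse genome, so how its reads were shared out is uncertain. Of 7 lymphatic endothelial markers 4 were tested, and none passed in either genotype comparison. The summed level of the 5 lymph node stroma genes in the table, *Ccl21a* and *Cxcl13* among them, was 0.903 to 5.16 FPKM and 3.71 to 16.8 FPKM in control and ASKO mice on chow and 0.35 to 15.7 FPKM and 0 to 4.27 FPKM in control and ASKO mice on HFD.

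*Ccr2*, the receptor that brings inflammatory monocytes into tissue, had 5.08, 0.952, 7.37 and 5.45 FPKM in control mice and 0, 0.811, 0 and 3.56 FPKM in ASKO mice on chow. On HFD it had 2.27, 5.27, 4.32 and 6.67 FPKM in control mice and 9.76, 9.12, 2.35 and 6.80 FPKM in ASKO mice. On chow 3 ASKO mice were below all control mice, and the HFD groups overlapped. In the limma fit the genotype difference on chow was -1.57 (SE 0.61, unadjusted p = 0.0193, adjusted p = 0.913), and the interaction was 2.01 (SE 0.86, unadjusted p = 0.0317, adjusted p = 0.748). The diet difference in ASKO mice was 2.11 with limma adjusted p = 0.0703, and it passed in 2 of 26 settings.

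The members next in order were spread over both classes. On HFD they were *Xcr1* (the receptor of cross-presenting dendritic cells, -1.05, SE 0.60), *Cxcl14* (-0.88, SE 0.51), *Cxcl16* (0.90, SE 0.62), *Ackr1* (the scavenging receptor of red cells and venules, which shares 25.7% of its exon bases with *Cadm3* on the same strand, -1.06, SE 0.74) and *Cxcl11* (-0.74, SE 0.53), with limma adjusted p between 0.976 and 0.985. On chow they were *Ccl11* (-0.74, SE 0.38), *Cx3cr1* (the fractalkine receptor, -0.86, SE 0.52), *Cxcr5* and *Ccl8*, each with limma adjusted p = 0.983. *Cxcr5* and *Ccl8* were at 0 in all control mice on chow, so no fold change is given. For the interaction they were *Cxcl14*, *Cxcl11*, *Cxcr5* and *Ackr1*, with limma adjusted p between 0.802 and 0.842.

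**Figure D3:**
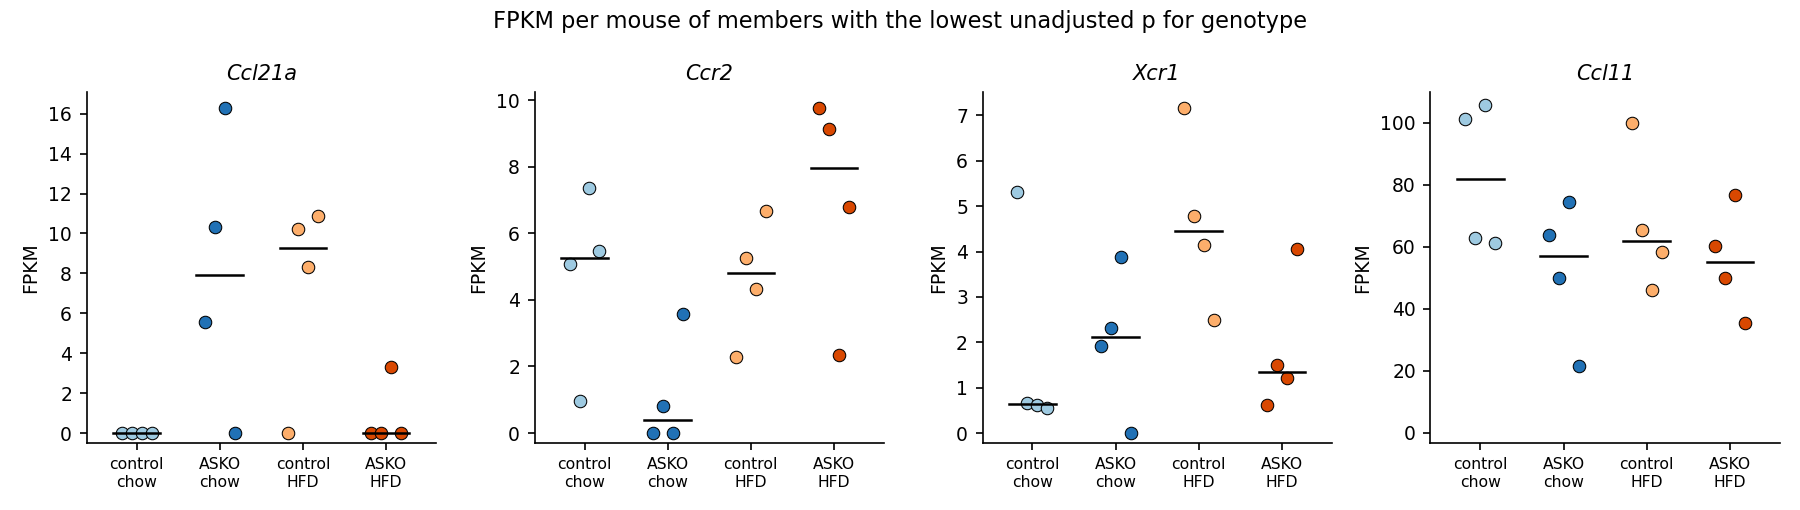
FPKM in each mouse (points) by group, with the median of 4 mice as a line, for *Ccl21a*, *Ccr2*, *Xcr1* and *Ccl11*, the members with the lowest unadjusted p for genotype on chow or on HFD. In all 4 genes the genotypes overlap on each diet.

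**Figure D4:**
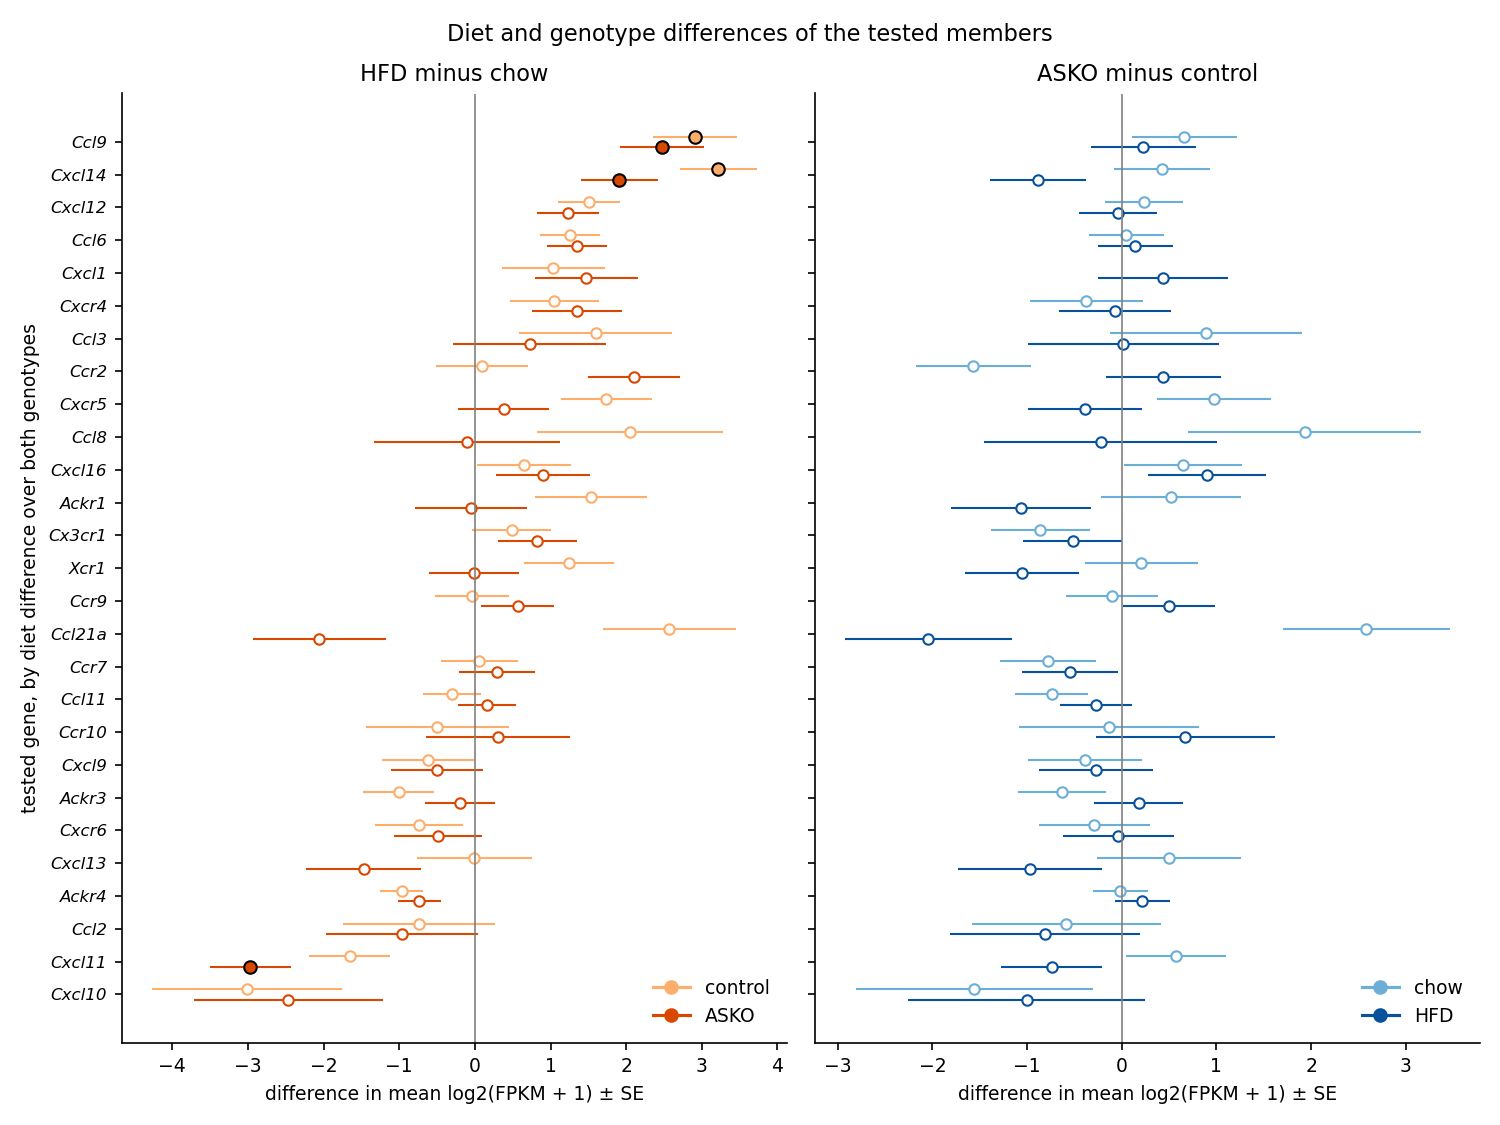
Differences in mean log2(FPKM + 1) with the limma SE (bars) for the 27 tested members, HFD minus chow in each genotype on the left and ASKO minus control on each diet on the right. Filled points passed and open points did not, and *Cxcl1* is left out on chow, where all 8 mice were at 0. All 5 filled points are diet differences, 2 in control mice and 3 in ASKO mice.

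Genes that carry the signal of chemokine receptors were taken as a list of 43, of which 37 were tested. Over both genotypes 9 of the 37 rose and none fell (24.3%, against 7.53% of all genes). They included *Rgs1*, *Rgs18* and *Rgs19*, which shorten the G protein signal, at differences of 2.90, 3.73 and 2.37, and the GTPase gene *Rac1* at 1.76, each past the limma limit. A list of related genes with other names gave 3 rises among 11 tested genes (27.3%). They were the complement receptors *C3ar1* (3.06) and *C5ar1* (2.14) and *Cmtm3* (1.73). *Pf4*, *Ccrl2*, *Cmklr1* and *Rarres2* of this list did not pass (limma adjusted p between 0.153 and 0.853). Of 14 tested genes of leukocyte adhesion 5 rose (35.7%) and none fell, with the largest differences in control mice for the integrin genes *Itgax* (4.47 over both genotypes) and *Itgb2* (3.44), followed by *Cd44* (3.19) and *Selplg* (2.90). Among 25 tested cytokine and NF-kB genes that induce chemokines 2 rose, the antagonist *Il1rn* (2.96) and the receptor *Tnfrsf1b* (1.5), which is 8.0% of them. Many of these genes are expressed in macrophages, whose marker sums by group are given above. None of the 4 lists held a gene that passed between the genotypes on either diet or for the interaction. On HFD *Itgax* nonetheless did not overlap, at 8.51, 26.3, 14.0 and 15.6 FPKM in control mice and 39.2, 37.8, 34.6 and 47.4 FPKM in ASKO mice. Its difference was 1.34 (limma adjusted p = 0.824), and 3.38% of all genes had genotypes without overlap on HFD. Overlap was not counted for the other genes of the lists.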

How the data were processed

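The authors trimmed the reads, aligned them to the mm10 genome with STAR (named in the submitters' processing notes, as are Cufflinks and Cuffdiff) and made FPKM values with Cufflinks. The deposited table holds FPKM of 19373 genes, 1 column per mouse. The library normalization of Cufflinks and its strand setting are not given in the sources used here. GENCODE M21 held 99.6% of the gene identifiers, and 22 symbols that a spreadsheet had turned into day numbers were restored.

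FPKM values were used as deposited. The test took genes that reached 1 FPKM in 4 or more mice, on log2(FPKM + 1) with limma (3.58.1, R 4.3.3), all 4 groups in one fit with an intensity trend, with Benjamini-Hochberg adjustment over 13148 genes within each contrast. Fold changes on this scale understate the change of low genes. A gene passed at an adjusted p under 0.05 and a log2 difference above 0.5 in size. The fit was tried on simulated data, drawn as normal values around each gene's mean with a shift between the diets. Such data differ from the stepped and often zero values of the members, and no conclusion is drawn from them. The average over genotypes was added after the data had been seen. *Mboat7* was compared by exact permutation tests. The depth estimate used the spacing of low values in 1475 coding genes with a single transcript, where between 50.4% and 76.7% of a mouse's low values lay within 0.2 of a whole step, against 40% if spread evenly. The step of each mouse was the best fit to these same values within a fixed range. The share near whole steps is therefore not a test of the step, and depths outside that range were not tried. Since the range held only shallow depths, the estimate cannot show that the data are shallow. Fragment numbers are approximate and assume FPKM scaled to the fragments mapped in each library.

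Groups and replicate numbers came from the sample titles. Same-numbered mice of different groups did not deviate together (24 pairs, correlations from -0.187 to 0.152). The main fit therefore used no pairing by number, though values this noisy cannot exclude one. Members and lists were chosen with earlier results of these data known. A gene of this family is not reported here and entered no count of members. Named with values were all members that passed between the diets, the 6 members with the lowest unadjusted p in each genotype comparison and in the interaction, the 5 members with the highest mean FPKM, and up to 4 genes of each list that passed, by size in control mice. Values of other members were added after they had been seen, for the members' roles. Alternatives were a pseudocount of 0.1, a filter of 5 FPKM or none, upper-quartile scaling, quantile normalization, only the groups compared, no intensity trend, a block for the replicate number, no fold limit, each mouse left out in turn and, added later, the omission of the libraries with more than 50% of their FPKM in 10 genes. Promoter sequences came from RefSeq on GRCm38.p6 and covered 34 of the 43 members. Not covered were *Ccl2*, *Ccl7*, *Ccl11*, *Ccl24*, *Ccr7*, *Ccr10*, *Cxcl11*, *Cxcl16* and *Cxcr5*. Python 3.11.15 was used for tables, with pandas 2.3.3, numpy 2.4.6 and scipy 1.17.1, and plots with matplotlib 3.10.9.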

Additional observations from a re-analysis of the deposited data

Results flagged for a closer look

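In 9 of the 68 groups of 4 mice looked at (17 genes in 4 groups), 1 mouse stood far from the other 3 by Dixon's criterion, which chance alone meets in about 1 in 20 groups, or about 3 here. In 4 of the 9 the other mice were all at 0, so the distance is that of 1 mouse with any fragment. These were *Ackr1* at 3.27 FPKM in ASKO mice on chow and at 2.69 FPKM in ASKO mice on HFD, *Ccl21a* at 3.30 FPKM in ASKO mice on HFD and *Cxcl14* at 2.24 FPKM in ASKO mice on chow.

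In the remaining groups the other mice were close together above 0. *Ackr4* was at 100.2 FPKM in 1 control mouse on HFD and between 197 and 212 FPKM in the others. *Cxcl10* was at 106 FPKM in 1 control mouse on chow against 30.9 to 40.2 FPKM, *Cx3cr1* at 5.67 FPKM in 1 control mouse on chow against 0.65 to 0.768 FPKM, and *Xcr1* at 5.32 FPKM in 1 control mouse on chow against 0.559 to 0.661 FPKM. *Cxcr5* was at 0 in 1 ASKO mouse on chow and between 1.36 and 1.61 FPKM in the others.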

How the results depend on the processing

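Over both genotypes the 6 members that passed between the diets passed in all 25 settings, and 6 or 7 members passed when 1 mouse was left out. Leaving out 1 mouse gave 2 or 3 members in control mice and 1 to 5 in ASKO mice. The ASKO count was 1 without ASKO chow replicate 0 or 2 or ASKO HFD replicate 0, and 5 without ASKO chow replicate 3. No member passed for genotype or interaction in any setting. Without the libraries with more than 50% of their FPKM in 10 genes (control HFD replicate 1 and ASKO HFD replicate 3), 6 members passed over both genotypes, 2 in control mice and 3 in ASKO mice. With the replicate number as a block, 6 members passed over both genotypes, 2 in control mice and 2 in ASKO mice, where *Cxcl14* was lost, and no genotype or interaction call appeared. The *Cxcl14* call in ASKO mice was also lost with no filter (adjusted p = 0.0772), a filter of 5 FPKM (0.0644), quantile normalization (0.066) and only the groups compared (0.137). Upper-quartile scaling and quantile normalization moved the median of all genes by at most 0.04 on the log2 scale. Detection at 1 FPKM in at least 3 of 4 mice gave 13 members in control mice (30.2%, against 44.7% of all genes) and 15 in ASKO mice (34.9% against 43.6%) on chow. On HFD it gave 18 in control mice (41.9% against 45.1%) and 16 in ASKO mice (37.2% against 46.8%). At 5 FPKM in 4 of 4 mice it gave 5 in control (11.6% against 18.8%) and 4 in ASKO mice (9.3% against 17.3%) on chow. On HFD that rule gave 5 in control (11.6% against 17.5%) and 6 in ASKO mice (14.0% against 19.4%). The *Mboat7* difference, leaving out 1 mouse, ran from -0.39 to 0.28 on HFD and from -1.50 to -0.85 on chow. The cause of these changes was not tested. Of the values above 0 of the 12 members with 1 annotated transcript, 56 of 83 stood for fewer than 5 fragments by the depth estimate.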

Other observations

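The members that were not tested were above 0 in 1 to 6 of the 16 mice. *Ccl7*, a monocyte attractant that binds CCR2, was listed at 13.7 FPKM in 1 ASKO mouse on chow and at 14.4 FPKM in 1 control mouse on HFD, which stood for an estimated 3.7 and 3.4 fragments. *Ccl17* and *Ccl22*, the ligands of CCR4, were above 0 in 1 mouse (9.22 FPKM) and in 3 mice (2.42 to 3.26 FPKM), and *Ccr4* itself in 1 mouse at 0.862 FPKM. *Cxcl2*, a neutrophil attractant, was above 0 in 2 mice at 4.26 and 5.25 FPKM, and its receptor *Cxcr2* in 2 mice at 1.39 and 1.08 FPKM. *Ccl28*, a mucosal ligand of CCR10, was above 0 in 6 mice at 0.595 to 2.46 FPKM, and *Cx3cl1*, the membrane-bound ligand of CX3CR1, in 2 HFD mice at 2.65 and 0.874 FPKM. *Ccl1*, *Ccl12* and *Ccl24* were listed once each, at 7.23, 6.75 and 2.49 FPKM.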
